A study of Salmo salar with 12 samples.

Results

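The comparison described here is that of liver from juvenile Atlantic salmon held for 48 h in 0.5 mg/L of depleted uranium (medium U) with liver from control fish held in the same lake water with no uranium added. It rests on 3 medium U and 3 control arrays, 6 of the 12 arrays of the series. The other 6 arrays, 3 at 0.25 mg/L (low U) and 3 at 1.0 mg/L (high U), entered the same statistical fit and are given where a value at another dose is set beside that at medium U. All fish were parr that had been acclimated for 72 h, were not fed, and were kept in the dark in standing water. Uranium was added as uranyl acetate dihydrate, so the exposed water also carried acetate. Since the sources mention no second tank for any treatment, p-values reflect the variation among these RNA samples and not among tanks. Whole liver tissue was used, in which fewer cells of a type and less RNA per cell cannot be told apart.

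The liver is the organ in which fish clear, conjugate and excrete foreign compounds into bile, and it makes most proteins of the blood plasma. Depleted uranium has the chemistry of natural uranium but is less radioactive, and in water it is largely present as the uranyl ion, which binds to phosphate, carbonate and protein. In mammals, uranium is best known for its effect on the kidney and for disturbing mitochondria, the organelles whose electron transport chain passes electrons to oxygen and drives ATP synthesis.

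Each RNA sample was hybridised to 1 array with 61657 spots for 55468 salmonid probes, read in 1 colour. A level below is the log2 intensity of a probe minus the 75th percentile of its array, so that 0 is the 75th percentile and a difference of 1 is a doubling. Before this scaling the medium U arrays were the brighter ones. Their 75th percentile averaged 7.14 ± 0.19 on the log2 intensity scale and that of the control arrays 6.04 ± 0.22 (SD, n = 3 each), a difference of 1.10 (two-sided exact permutation test, p = 0.1, the smallest that 3 arrays against 3 allow). Between 54.6% and 61.5% of probes were well above background on the medium U arrays, against 45.0% to 49.3% on the control arrays. Scaling to the 7 spike-in probes in place of the 75th percentile moved the median log2 change of all tested probes to 1.05, from 0.08, so a change as given here is a change against the other probes of an array. Testing was limited to probes that the 3 arrays of some group, whichever it was, all read as well above background.

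Of 29456 probes tested, 3378 were called different at medium U (11.5%), which required both an adjusted p (limma, Benjamini-Hochberg over these probes) under 0.05 and a 1.5-fold or larger difference. Of these, 1926 were higher than in the control (6.54% of those tested) and 1452 lower (4.93%). At an unadjusted p under 0.05, 8031 probes passed. The median log2 change was 1.15 among the probes called higher and -1.17 among those called lower. Fitted changes of a log2 of 2 or more were found in 181 of the higher probes (0.614% of those tested) and in 65 of the lower ones (0.221%). Of the 181, 84 were well above background on 0 control arrays, and the lower bound of the change reached a log2 of 2 in only 5 of these. Of the 65, 5 were well above background on 0 medium U arrays. In 3374 of the called probes the 3 medium U arrays lay wholly on one side of the 3 control arrays, which was also so for 32.6% of all tested probes.

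**Figure D1:**
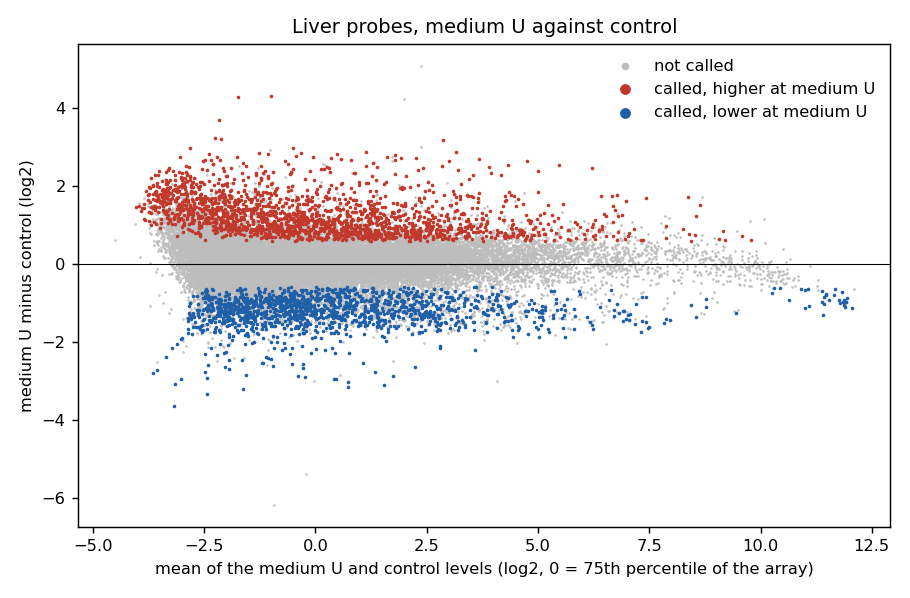
Change of each tested probe at medium U against control (log2, vertical axis) by its mean level (log2, horizontal axis, where 0 is the 75th percentile of an array), with called probes coloured by direction. Called probes of both directions occur at most levels, while 30 of the lower probes stand at levels of 10 and above, where none was called higher.

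The called increases and decreases differed in how often the lower group was well above background. Fewer probes were so on the control arrays (45.0% to 49.3%) than on the medium U arrays (54.6% to 61.5%). A probe could also enter the test through any group, so this contrast is not by itself a trait of the response. Of the 1926 higher probes, 402 (1.36% of those tested) were well above background on 0 of the 3 control arrays, and only 1235 were so on all 3. For 313 of those 402 a lower bound of the fold change can be given, set against the dimmest level that counted as above background on each control array, and the other 89 had no bound above 1. With the 313 at their bounds and the 89 at no change, the median log2 change of the higher probes was 0.95. Of the 1452 lower probes, 1347 were well above background on all 3 medium U arrays and 6 on none. At levels of 10 and above, 30 of 98 probes were called lower and 0 higher. With quantile normalization, 0 of these 98 were called lower and 1 higher, and with spike-in scaling 0 lower and 32 higher, so the decreases of the brightest probes were lost under both.

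The arrays lay on 3 slides, each with 1 array of every group, and the slide is known from the files. With the slide as a block 5160 probes were called, of which 49.0% were higher. Within slides, medium U minus control had the same sign on all 3 slides for 3374 of the 3378 called probes and for 53.4% of all tested probes. The number called moved with the array left out. It was 2370, 1078 and 1674 without medium U replicates 1, 2 and 3, and 1978, 1635 and 4186 without control replicates 1, 2 and 3. Without a low U or high U array, which are outside this contrast, it was between 2893 and 3440.

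Gene names were available for 787 of the tested probes under 722 names, through the gene lists that the study published for this dose. The study chose these probes on the same arrays, so nearly all of them were bound to pass, and their counts are not independent evidence of a direction. Of the 787, 547 were called higher, 223 lower and 17 were not called. The higher ones made up 71.0% of the named calls, beside 57.0% of all calls. The median log2 change of the named probes was 0.97. Counts and medians of the gene groups below are to be read against these values. No probe sequences or genome positions were used here. The salmon genome was duplicated in its ancestry, so a probe may take up RNA of a near-identical copy of its gene.

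Several named increases with large fitted changes were in probes that no control array measured above background, so that only a bound of their size is known. Such probes could enter the test only through an exposed group. Here and below, an adjusted p beside a bound is that of the fitted change, and the bound itself was not tested. A bound also holds only for the background handling used. MRPS9, given further below, had a bound of 1.56-fold, and its change turned sign after another background correction (normexp). NMD3, the adaptor that exports the large ribosomal subunit from the nucleus, stood at levels of -0.04, 1.04 and 0.24 on the medium U arrays, against -4.16, -4.34 and -3.14 on the control arrays. By the bound the increase is at least 7.82-fold (limma adjusted p = 0.00112). RUVBL1, a helicase of chromatin remodelling and of small nucleolar ribonucleoprotein assembly, had -1.52, -1.33 and -1.17 at medium U and -4.84, -4.19 and -3.89 in the control, at least 2.32-fold higher (adjusted p = 0.00189). NP, purine nucleoside phosphorylase, which releases bases from nucleosides, had -1.46, 0.79 and -0.30 at medium U and -4.66, -3.13 and -4.28 in the control, at least 4.70-fold higher (adjusted p = 0.00375).

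EEF1AS, described as elongation factor 1 alpha, which brings aminoacyl-tRNA to the ribosome, was bright in both groups. Its levels were 4.37, 4.76 and 4.66 at medium U and 1.41, 1.46 and 2.29 in the control, a log2 change of 2.88 ± 0.28 (standard error, adjusted p = 0.00112). HDLBP (vigilin), an RNA-binding protein of the rough endoplasmic reticulum, changed by 2.72 ± 0.20 (adjusted p = 0.001), with 3.10, 3.47 and 3.27 at medium U and 0.32, 0.48 and 0.87 in the control. HAO2, a peroxisomal hydroxyacid oxidase that makes hydrogen peroxide, changed by 2.80 ± 0.25 (adjusted p = 0.00112). In these genes the 3 medium U arrays agreed closely, while control replicate 3 was the highest of the control arrays in each.

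**Figure D2:**
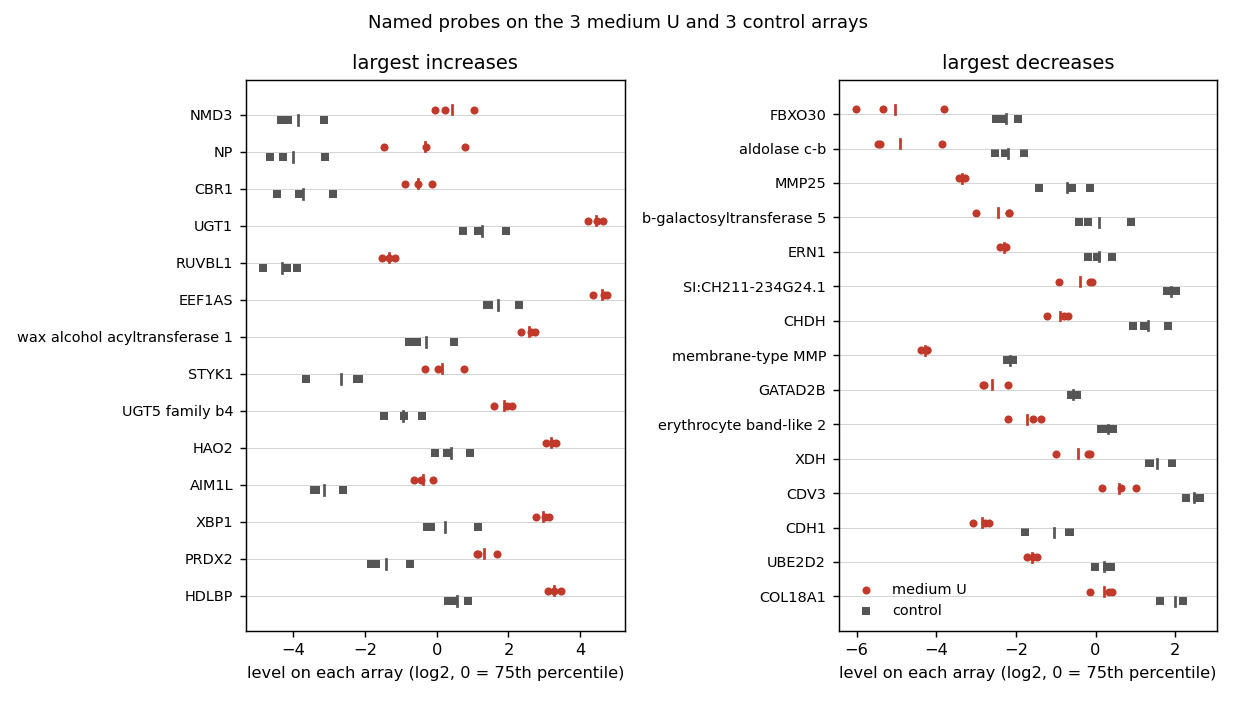
Levels on each array (log2, 0 is the 75th percentile) for the largest increases and largest decreases, by fitted change, among the named probes reported here, 1 probe per gene, with circles for the 3 medium U arrays, squares for the 3 control arrays and a tick at each mean. The groups do not overlap in any row, since separation was part of the choice.

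Enzymes that conjugate and oxidise foreign compounds had the highest median of the 16 gene groups. Phase I and II biotransformation had 21 of 22 named probes higher and 1 lower. The median log2 change was 2.01 (1.94 with 4 bounded probes at their bounds). Over all named probes it was 0.97, and over all tested probes 0.08. UGT1, a glucuronosyltransferase that makes compounds water-soluble for excretion, stood at 4.22, 4.65 and 4.48 at medium U, against 1.14, 0.73 and 1.94 in the control (log2 change 3.18 ± 0.34, adjusted p = 0.00134). The other 4 probes with this symbol, described as forms of a second glucuronosyltransferase family, rose too, 3 of them by 2.49, 2.57 and 2.66 and the dimmest by at least 1.94-fold. CBR1, a carbonyl reductase, had -0.89, -0.14 and -0.52 at medium U, against -2.88, -4.46 and -3.84 in the control, at least 4.11-fold higher (adjusted p = 0.00219). The member that went the other way was CYP19A1, the aromatase that makes oestrogens from androgens. Its levels were 2.10, 1.82 and 1.83 at medium U, against 3.50, 3.66 and 3.40 in the control, a change of -1.60 ± 0.21 (adjusted p = 0.00245).

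Of 11 probes for organic anion and bile acid handling, 9 were higher and 2 lower (median log2 change 1.38). OSTA, a subunit of the basolateral bile acid exporter, had 7.17, 7.53 and 7.60 at medium U and 4.78, 4.35 and 5.80 in the control (2.46 ± 0.33, adjusted p = 0.00256). NR1H4, the bile acid receptor FXR, rose by 1.85 ± 0.24 (adjusted p = 0.00231). Its medium U levels of 1.46, 2.03 and 1.92 lay above closely grouped control levels of -0.05, -0.08 and -0.02. The canalicular pump ABCC2, which exports conjugates into bile, had probes that disagreed. Its brightest probe, described as multidrug resistance associated protein 2, had 2.15, 1.77 and 2.31 at medium U and 3.49, 3.55 and 3.35 in the control (change -1.39 ± 0.18, adjusted p = 0.00219), while the other rose by 2.05. SLCO1B3, an uptake carrier for organic anions, was lower by -0.79 ± 0.18 (adjusted p = 0.0182), which turned to 0.19 when scaled to the spike-ins.

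Named probes of mitochondrial genes were mostly higher, as were the named probes as a whole. The electron transport chain and ATP synthase had 21 of 24 probes higher, 2 lower and 1 not called (median log2 change 1.35), and mitochondrial ribosome, import and proteases had 16 of 16 higher (median 1.34, or 1.04 with 3 bounded probes at their bounds). SDHD, a membrane anchor of complex II, had 1.65, 2.20 and 2.08 at medium U and 0.31, 0.21 and 0.71 in the control, a change of 1.57 ± 0.20 (adjusted p = 0.00236). SDHA, the catalytic subunit of the same complex, was at least 3.21-fold higher, with no control array well above background (adjusted p = 0.00211). COX15, which makes the haem of complex IV, rose by 1.80 ± 0.26 (adjusted p = 0.00328).

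The 2 respiratory probes that fell stood out from partners in the same complexes. NDUFS6, an accessory subunit of complex I, had levels of 0.09, -0.51 and -0.75 at medium U, against 1.38, 1.52 and 1.27 in the control (change -1.78 ± 0.22, adjusted p = 0.00215). MT-CO3, the only named respiratory subunit encoded in mitochondrial DNA, had 0.34, -0.04 and 0.38 at medium U, against 1.61, 2.14 and 1.5 in the control (change -1.52 ± 0.24, adjusted p = 0.00491). Nuclear-encoded COX6B1 of the same complex IV had 5.06, 5.26 and 4.92 at medium U, against 3.21, 3.60 and 3.56 in the control (1.63 ± 0.20, adjusted p = 0.00208). Whether MT-CO3 and COX6B1 differ was not tested beyond these separate changes of opposite sign. Among the import and ribosome genes, MRPS9 and TIMM8A were dim, well above background on 0 control arrays, and after normexp background correction their changes turned to -0.10 and -0.14.

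Peroxide and redox defence had 7 of 9 probes higher and 2 lower (median 1.12). PRDX2, a cytosolic peroxidase of hydrogen peroxide, had 1.13, 1.67 and 1.15 at medium U and -1.69, -1.83 and -0.73 in the control (change 2.74 ± 0.30, adjusted p = 0.00145). Its mitochondrial relative PRDX3 rose by 1.51 ± 0.25 (adjusted p = 0.0057), and NQO1, a quinone reductase, by 2.27 ± 0.25 (adjusted p = 0.00134, well above background on 1 of 3 control arrays). The 2 forms of selenoprotein P, the plasma carrier of selenium, parted: SEPP1A was at 5.49, 5.61 and 5.62 at medium U, against 6.19, 6.34 and 6.28 in the control (-0.69 ± 0.16, adjusted p = 0.0211), and SEPP1B was higher by 0.82 ± 0.18 (adjusted p = 0.0178). SEPP1A turned to 0.28 when scaled to the spike-ins. XDH, xanthine dehydrogenase, which makes urate in purine breakdown, is no member of that list and fell by 1.98 on the log2 scale (adjusted p = 0.00319).

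Folding and secretion genes of the endoplasmic reticulum had 22 of 27 probes higher and 5 lower (median 1.20). XBP1, the transcription factor of the unfolded protein response, stood at 2.77, 3.03 and 3.13 at medium U, against -0.15, -0.28 and 1.15 in the control (2.74 ± 0.33, adjusted p = 0.00208). ERN1 (IRE1), the sensor whose nuclease splices XBP1 mRNA in animals, moved the other way. Its levels of -2.39, -2.28 and -2.25 at medium U lay below -0.19, 0.41 and 0.03 in the control, a change of -2.39 ± 0.23 (adjusted p = 0.00112). P4HB, protein disulphide isomerase, was among the brightest named probes, at 8.97, 9.18 and 9.54 at medium U and 6.88, 7.83 and 7.81 in the control (1.72 ± 0.30, adjusted p = 0.0074). Of the coat proteins of transport vesicles, SEC24D fell by 1.45 on the log2 scale (adjusted p = 0.00281), whereas both probes with the symbol SEC23A rose, by 0.82 (described as homolog b) and 1.70.

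Cytosolic chaperones had 6 of 7 probes higher and 1 lower. HSP90AB1 rose by 2.10 ± 0.26 (adjusted p = 0.00219), with 3.18, 3.74 and 3.80 at medium U and 1.15, 1.28 and 1.97 in the control. ST13, a cochaperone that links HSC70 to HSP90, was the one that fell, by 1.19 on the log2 scale (adjusted p = 0.00799).

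In the lists for sugar metabolism and amino acid catabolism few named probes were lower, and enzymes absent from the study's list could not be seen. Some metabolic enzymes outside these lists were lower, among them CHDH, XDH, HMGCS1 and LSS. Sugar metabolism had 16 of 18 probes higher, 1 lower and 1 not called (median 1.38), and amino acid catabolism had 20 of 21 higher and 1 lower (median 1.13). GAPDH, the glycolytic dehydrogenase often used as a reference gene, had 6.49, 7.01 and 6.69 at medium U and 4.12, 3.53 and 4.97 in the control (2.52 ± 0.32, adjusted p = 0.00224). The one decrease was an aldolase, described as fructose-bisphosphate aldolase c-b, a form known from brain in other vertebrates. It had -3.85, -5.47 and -5.42 at medium U, where no array was well above background, against -2.27, -1.81 and -2.53 in the control, at least 2.62-fold lower (adjusted p = 0.0052). G6PC, the last step of glucose release, was 0.69 ± 0.21 higher and was not called (adjusted p = 0.0555).

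GCH1, which starts tetrahydrobiopterin synthesis, rose by 2.04 ± 0.21 (adjusted p = 0.00115), and BCKDHB of branched-chain amino acid breakdown by 2.04 ± 0.20 (adjusted p = 0.00112). In lysine breakdown, PIPOX rose by 2.31 ± 0.33 (adjusted p = 0.00323) while AASS, which opens the main route, fell by 1.03 on the log2 scale (adjusted p = 0.00553). The levels of AASS were 3.90, 3.88 and 3.83 at medium U and 5.09, 4.64 and 4.97 in the control, well apart.

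Plasma proteins of coagulation and complement, made by liver, had 11 of 16 probes higher and 5 lower (median 1.16). F9, coagulation factor IX, had 3.30, 3.71 and 3.82 at medium U and 0.49, 0.78 and 1.45 in the control (2.71 ± 0.36, adjusted p = 0.00252), and F7, which starts the extrinsic pathway, rose by 1.74 ± 0.21 (adjusted p = 0.00211). Both probes of F10 rose as well, by 1.30 and 1.74. Lower probes included C4A, CFB, the lectin described as c-type mbl-2 protein and ITIH4, an inhibitor-like plasma protein. C4A of the classical pathway had 0.91, 0.63 and 1.20 at medium U and 2.20, 2.73 and 2.23 in the control (-1.47 ± 0.22, adjusted p = 0.00385). MASP1, a protease gene of the lectin pathway of complement, rose by 2.32 ± 0.34 (adjusted p = 0.00348).

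**Figure D3:**
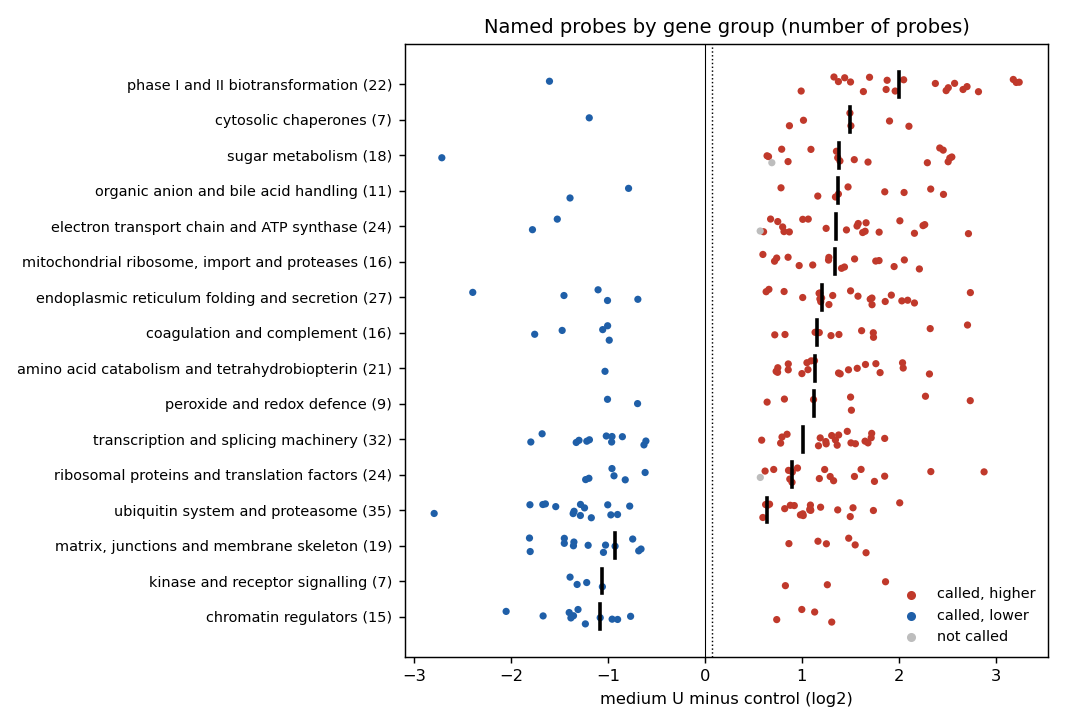
Change at medium U against control (log2, horizontal axis) of the named probes in 16 gene groups, 1 point per probe, coloured by call, with a black bar at the group median, a solid line at 0 and a dotted line at 0.08, the median of all tested probes. Chromatin regulators, kinases and matrix genes have medians below 0, and the other 13 groups above it. The median of all named probes was 0.97.

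Genes of ribosomes and translation had 17 of 24 probes higher, 6 lower and 1 not called (median 0.90). RPLP0 of the ribosomal stalk had 4.85, 5.19 and 5.30 at medium U and 2.25, 3.02 and 3.08 in the control (2.33 ± 0.24, adjusted p = 0.00115). RPS19 was lower, with -2.11, -2.12 and -2.12 at medium U and -1.19, -0.52 and -0.96 in the control (-1.23 ± 0.23, adjusted p = 0.00862). EIF4E, the protein that binds the mRNA cap, was lower by -0.94 ± 0.15 (adjusted p = 0.00562), but with spike-in scaling its change was 0.04. The 2 probes of EIF3A went in opposite directions, by 0.90 and -0.62.

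Transcription and splicing machinery was split, with 20 of 32 probes higher and 12 lower (median 1.01, or 0.82 with 1 bounded probe at its bound). The mediator and polymerase probes among them were higher except MED13, while splicing factors stood on both sides. U2AF2, which marks the 3' splice site, had 2.05, 1.64 and 2.06 at medium U and 3.50, 3.83 and 3.45 in the control (-1.68 ± 0.21, adjusted p = 0.0021). LUC7L, a U1 snRNP protein, fell by 1.79 on the log2 scale (adjusted p = 0.00496), and CDC5L, of the spliceosome's Prp19 complex, by 1.33 (adjusted p = 0.0103). SFRS2, an SR splicing factor, rose by 1.68 ± 0.26 (adjusted p = 0.00433). For MED13, RBM25, LSM12A, PTBP1 and MATR3, decreases under a log2 of 1 in size turned to between 0.02 and 0.37 with spike-in scaling. A probe described as matrin-3 isoform 2 rose by 1.35 ± 0.17 (adjusted p = 0.00219), against the decrease of MATR3.

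Chromatin regulators were the group with the lowest median, -1.08, with 11 of 15 probes lower and 4 higher. GATAD2B, a subunit of the NuRD repressor complex, had -2.20, -2.83 and -2.79 at medium U and -0.47, -0.60 and -0.61 in the control (-2.05 ± 0.28, adjusted p = 0.00277). DNMT1, the maintenance DNA methyltransferase, fell by 1.31 on the log2 scale (adjusted p = 0.0121). The nuclear receptor co-repressor probe fell by 1.38 (adjusted p = 0.0121). JMJD2A, a histone lysine demethylase, was the largest of the increases, with 0.17, 0.07 and 0.25 at medium U and -1.12, -1.39 and -0.92 in the control (1.31 ± 0.22, adjusted p = 0.00582). MSL1 had a probe on each side, at 1.00 and -1.08.

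Matrix, junction and membrane skeleton genes had 13 of 19 probes lower and 6 higher (median -0.93). CDH1, the cadherin of epithelial junctions, had -3.07, -2.67 and -2.78 at medium U and -0.66, -0.65 and -1.78 in the control (-1.81 ± 0.28, adjusted p = 0.0043). COL18A1, a basement membrane collagen, had 0.41, -0.14 and 0.33 at medium U and 2.19, 2.19 and 1.63 in the control (-1.80 ± 0.22, adjusted p = 0.00198). SPTAN1, the non-erythroid alpha spectrin, fell by 1.35 on the log2 scale (adjusted p = 0.00515), and both ADD3 probes fell, by 1.45 and 1.02. Both HSPG2 probes (perlecan) and the laminin b2 probe, also basement membrane components, went the other way. The brighter HSPG2 probe was at 7.21, 7.43 and 7.66 at medium U and 5.68, 5.65 and 6.53 in the control (1.48 ± 0.28, adjusted p = 0.00981). ADD1 (adducin 1), with 0 control arrays well above background, was called higher too, at least 1.04-fold (adjusted p = 0.00862). Its change turned sign after normexp background correction. The plectin-6 probe rose by 1.25 ± 0.20 (adjusted p = 0.00499).

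Kinase and receptor signalling held 3 higher and 4 lower probes. JAK1, the kinase of cytokine receptors, had 1.99, 1.85 and 2.10 at medium U and 3.38, 3.40 and 3.10 in the control (-1.32 ± 0.19, adjusted p = 0.00319). MAP2K4, which activates JNK and p38 kinases, rose by 1.86 ± 0.24 (adjusted p = 0.00236). Of the genes tied to cell death, AIFM1, the mitochondrial flavoprotein that can move to the nucleus, rose to 1.06, 1.74 and 1.24 at medium U, against -1.39, -1.16 and -0.68 in the control (2.42 ± 0.26, adjusted p = 0.00134). ACIN1, a nuclear protein of chromatin condensation in apoptosis, had 0.78, 0.73 and 0.90 at medium U and 2.16, 1.83 and 1.95 in the control (-1.18 ± 0.18, adjusted p = 0.00399).

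The ubiquitin system and proteasome list was split, with 20 of 35 probes higher and 15 lower (median 0.64). The proteasome subunits PSMA2, PSMA4 and PSMD13 and the modifiers SUMO3 and NEDD8 were among the higher, and the ubiquitin-specific proteases USP7, USP39 and USP49 and both USP48 probes among the lower. Ligases stood on both sides, with MIB2 higher, TRIM25, FBXW7 and UBR2 lower, and a UBR4 probe on each side. With spike-in scaling TRIM25 and UBR2 turned to 0.01 and 0.08. The small ubiquitin-related modifier 3 probe was at least 2.98-fold higher (adjusted p = 0.00112). USP49 had -1.88, -2.04 and -2.35 at medium U and -0.77, -0.24 and -0.65 in the control (-1.54 ± 0.26, adjusted p = 0.00661). UBE2D2, a ubiquitin-conjugating enzyme, had -1.46, -1.73 and -1.58 at medium U and 0.28, -0.02 and 0.38 in the control (-1.80 ± 0.21, adjusted p = 0.00189). FBXO30, an F-box subunit of a ubiquitin ligase, was at -3.80, -6.02 and -5.33 at medium U, where no array was well above background, and -2.49, -1.95 and -2.34 in the control, at least 2.51-fold lower (adjusted p = 0.00897). USP, described as universal stress protein and caught by the list's pattern, is no ubiquitin gene.

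Many of the 65 probes that fell by a log2 of 2 or more shared an order of the control arrays. Only 11 of the 65 had a name or description, among them a probe described only as unknown. The median levels of the 65 were -1.52, -2.59 and -2.41 on medium U replicates 1, 2 and 3. On control replicates 1, 2 and 3 they were 0.75, 0.31 and -0.61. In 44 of the 65 (67.7%), control replicate 1 was the highest and control replicate 3 the lowest of the controls with replicate 2 between them. This order was found in 12.8% of all tested probes and in 3 of the 11, the probe described as unknown included. In 55 of the 65, medium U replicate 1 was the highest of its group. This was so in 678 of the 1452 lower probes and in 7352 of the 29456 tested. In 133 of the 181 strong increases medium U replicate 1 was the lowest of its group, as it was in 1305 of the 1926 higher probes and in 10539 of the 29456 tested. The median range over the control arrays was 1.42 in the 65, against 1.20 in the 181 and 0.64 over all tested probes. The groups did not overlap in any of the 65. The median difference was -3.53, -2.0 and -1.92 within slides 1, 2 and 3.

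How many of the 65 stayed called depended on which array was left out. It was 63, 26 and 36 without medium U replicates 1, 2 and 3 and 41, 33 and 65 without control replicates 1, 2 and 3. Of all 1452 lower probes, 915, 409 and 766 stayed called without these medium U arrays, and 755, 567 and 1276 without these control arrays. All 65 were called with the slide as a block. The methods' one-way test with its Tukey step called 11 of the 65 and 335 of the 1452. Of the 181 strong increases, between 140 and 174 were called in each of the 6 omissions of a medium U or control array, against 659 to 1679 of all 1926 higher probes. The methods' test called 100 of the 181 and 663 of the 1926. The 65 were also low at the other doses, which share the control arrays, and their median change across low, medium and high U was -2.10, -2.45 and -2.24. Among unnamed probes, CUST_44646_PI426552878 and CUST_21549_PI426552878 had large fitted decreases without overlap, to medium U levels mostly not well above background. CUST_44646_PI426552878 had -3.69, -5.77 and -5.51 at medium U and -0.25, -1.19 and -2.57 in the control, at least 4.75-fold lower (adjusted p = 0.00847). CUST_21549_PI426552878 had -3.03, -4.94 and -4.34 at medium U and -0.05, -0.83 and -1.40 in the control (-3.35 ± 0.52, adjusted p = 0.00466, 1 medium U array well above background). Another unnamed probe without overlap, CUST_22813_PI426552878, had 1.07, 1.29 and 1.12 at medium U and -0.18, -4.36 and -4.92 in the control (4.31 ± 1.12, adjusted p = 0.0329, 1 control array well above background). Its medium U levels were close together, and control replicate 1 lay far above the other controls.

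**Figure D4:**
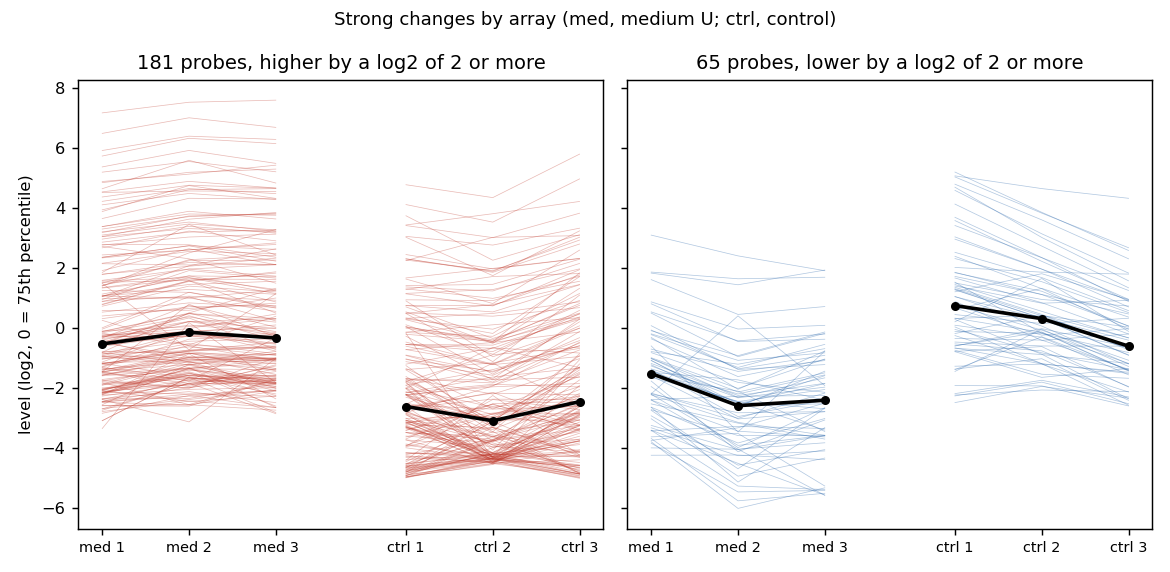
Level (log2, 0 is the 75th percentile) on each medium U array and each control array of the 181 probes higher and the 65 probes lower by a log2 of 2 or more, 1 thin line per probe within each group of arrays and black circles at the medians. Among the control arrays, the median of the lower probes is highest on replicate 1 (0.75) and lowest on replicate 3 (-0.61).

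The named members of the strong decreases include 2 probes of matrix metalloproteinases, enzymes that cut extracellular matrix. The probe with the symbol MMP25, described as matrix metalloproteinase 20, had -3.43, -3.28 and -3.35 at medium U and -0.60, -0.13 and -1.42 in the control (-2.64 ± 0.33, adjusted p = 0.00214). The probe described as membrane-type matrix metalloproteinase had -4.25, -4.24 and -4.39 at medium U and -2.24, -2.07 and -2.12 in the control, at least 2.72-fold lower (adjusted p = 0.00134). CHDH, which oxidises choline on the way to betaine, had -0.79, -1.21 and -0.69 at medium U and 1.21, 1.81 and 0.95 in the control (-2.22 ± 0.32, adjusted p = 0.00328). In each of these the 3 medium U arrays lay within a log2 of 1 of each other.

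Blood and immune cells are part of any liver sample, and few of their markers could be followed. Of 45 marker genes for 7 cell types only HBB1 and CD68 had a named probe, and 0 of 9 hepatocyte markers had one, so the tissue label was not checked against them. A marker could be named only if the study listed it at this dose, so markers without a listed change are not seen. The changes of HBB1 and CD68 therefore do not show a change in cell content. HBB1, a beta globin of red cells, had 1.24, 1.22 and 1.29 at medium U and 2.86, 2.96 and 2.90 in the control (-1.66 ± 0.15, adjusted p = 0.00112). CD68, a macrophage protein, had 2.89, 3.23 and 3.22 at medium U and 2.20, 1.76 and 1.95 in the control (1.14 ± 0.19, adjusted p = 0.00524). The part of blood content in the other changes was not tested.

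Many probes were called at medium U and at neither other dose. They numbered 1577 (5.35% of those tested), 775 higher (2.63%) and 802 lower (2.72%). Against the same control arrays, 1852 probes (6.29%) were called at low U, 1203 higher (4.08%) and 649 lower (2.2%), and 1057 (3.59%) at high U, 736 higher (2.5%) and 321 lower (1.09%). Detection had the same order. Probes well above background made up 54.62% to 61.5% on the medium U arrays. They were 48.97% to 55.08% on the low U arrays and 45.75% to 49.22% on the high U arrays. How far the counts depend on this was not tested. Across low, medium and high U, the 775 had median changes of 0.73, 0.97 and 0.67 and the 802 of -0.81, -1.12 and -0.64. At low U 771 of the 775 and 801 of the 802 had the same sign as at medium U, and at high U 761 and 800. Because the doses share the control arrays and the probes were chosen by their medium U change, this agreement was largely built in. The smaller medians at low and high U follow in part from the same choice. In direct tests between doses, limma called 0 probes between medium U and low U and 0 between medium U and high U. Unadjusted p-values under 0.05 were found for 584 and 1905 of all tested probes, and the methods' one-way test with its Tukey step called 16 and 126. Among the 1577 the lowest adjusted p was 0.68 against low U and 0.409 against high U. A call at medium U only is therefore not shown to be a difference between the doses. Without medium U replicate 2 the number called at medium U only was 183, and without medium U replicate 3 it was 616.

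**Figure D5:**
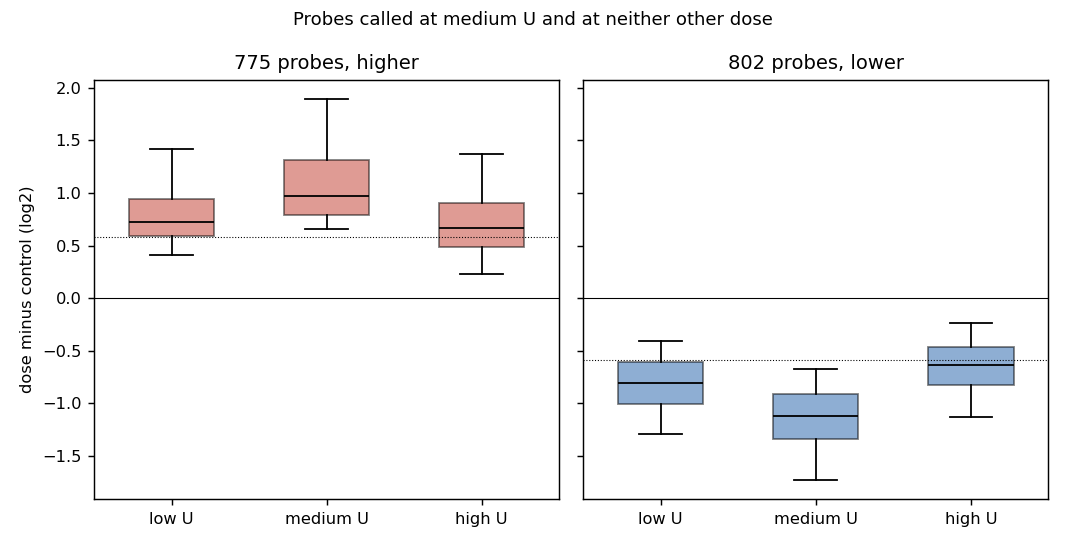
Changes against control (log2) at low, medium and high U of the probes called at medium U only, with boxes from the 25th to the 75th percentile over probes, a line at the median, whiskers at the 5th and 95th percentiles and dotted lines at the minimum fold change of 1.5. Medians at low and high U lie on the same side of 0 as at medium U, at 0.73 and 0.67 for the higher probes and -0.81 and -0.64 for the lower ones. All doses share the control arrays.

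Few of these probes were in the study's list, 26 of the higher and 12 of the lower ones, some described only as unknown. SLC25A27, an uncoupling protein of the inner mitochondrial membrane, had 0.44, 0.74 and 0.79 at medium U and -0.50, -0.48 and -0.25 in the control (1.06 ± 0.18, adjusted p = 0.00652), and its change was 0.58 at low U and 0.34 at high U. PPP1CB, a catalytic subunit of protein phosphatase 1, changed by 0.62, 1.06 and 0.58 at low, medium and high U. COPS2, of the COP9 signalosome that removes NEDD8 from ubiquitin ligases, changed by 0.54, 1.01 and 0.61. TIMM8A, described as the homolog b of this mitochondrial import chaperone, was the one named gene of these that was lower than the control at low U, at -0.67, and its control levels were not well above background.

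Of the lower ones with a gene name, CFB, complement factor B, was the brightest. It had 7.86, 7.70 and 8.19 at medium U and 9.05, 9.06 and 8.80 in the control (-1.05 ± 0.20, adjusted p = 0.00941), and its change was -0.57 at low U and -0.72 at high U. SLC25A45, a carrier of the inner mitochondrial membrane, had -2.55, -3.20 and -3.18 at medium U and -1.85, -1.28 and -1.66 in the control (-1.38 ± 0.24, adjusted p = 0.0071), with -0.67 at low U and -0.34 at high U. FBN1, the fibrillin of elastic fibres, was lower by -0.66 ± 0.15 (adjusted p = 0.0218) and SEC22A, a SNARE-like protein of vesicle traffic, by -0.69 ± 0.14 (adjusted p = 0.0117). With spike-in scaling these last 2 changes were 0.32 and 0.28.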

How the data were processed

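Liver RNA of 3 medium U and 3 control fish, with 3 low U and 3 high U arrays in the same fit, was measured on 1-colour arrays. The authors extracted spot intensity with Agilent Feature Extraction 10.7 (background-subtracted and detrended, with spots below background given a surrogate) and deposited it unscaled. A second deposited table holds the authors' processed log2 values of 40267 probes, with scaling and centring not given in the sources used here. Its replicate columns 1 and 2 of medium U match scanner replicates 2 and 1 (r = 0.969 and 0.940), and low U and high U each have such a crossed pair; group membership is unaffected. No spot was saturated (0 on every array).

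Control spots and outlier-marked spots were left out, spots of a probe were averaged as log2, and each array was scaled by subtracting its 75th percentile. Tested probes had at least 2 values per group. limma 3.58.1 (R 4.3.3) fitted the 4 groups together, two-sided, with Benjamini-Hochberg adjustment over all tested probes. Per-array summaries used Python 3.11.15 with pandas 2.3.3, and steps were tested on simulated data. For arrays, 3 per group limits the precision.

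Names came from the study's supplementary rows for this dose, tied to probes by fold change (relative tolerance 2e-05); 863 of 891 rows gave a name, and the table's own fold changes were used for nothing else. Where a gene had several probes the brightest is given. Named genes are the 15 largest increases and decreases by fitted change without overlap, 8 each way among medium-only probes, up to 4 called members of each gene group and those opposing it, genes the study singles out, and the 2 largest unnamed changes each way; other genes were chosen after their values were seen, and a few genes that the rule names are not reported here. Members, lists and tests were chosen with earlier results of these data known. The sources used here do not say that a replicate number marks a shared batch. The correlation of deviations between same-numbered medium U and control arrays was 0.13, -0.17 and 0.28, and between arrays of a slide 0.27, 0.13 and 0.28. The pair of replicates 3 is in both sets, so number and slide cannot be told apart there. Alternatives tried were the background correction, scaling, filter, flags, value table, arrays fitted, blocks and test.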

Additional observations from a re-analysis of the deposited data

How the results depend on the processing

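Values for 3 arrays a group depend strongly on scaling and on single arrays. The number of probes called at medium U (3378) moved to 18891 with spike-in scaling, 13009 with no filter on dim probes, 1655 with only the 6 medium U and control arrays, 5160 with a slide block and 1000 by the methods' test, and was 1078 to 4186 without single arrays. The share called higher (57.0%) was 63.5% after normexp, 99.4% with spike-ins, 18.6% with no filter, 49.4% among probes detected on all 12 arrays, 49.0% with the slide block, 66.4% with the methods' test and 52.0% to 64.3% without single arrays. Probes called at medium U only (1577) numbered 6057 with spike-ins, 12213 with no filter, 34 with the methods' test and 183 to 2357 without single arrays. Between medium U and low U the count (0) was 16 with the methods' test and 0 to 6 without single arrays, and between medium U and high U (0) it was 12183 with spike-ins, 6117 with no filter, 126 with the methods' test and 0 without any single array. The brightness difference was 0.973 to 1.211 without single arrays. Causes were not tested, apart from the numbers of probes or arrays that a setting itself changes. With the replicate number as a block, 2917 probes were called, 56.7% of them higher, and 1634 at medium U only. Whether the numbers pair the samples is not known. The deviations of medium U replicate 1 correlated at 0.126 with control replicate 1 and at 0.134 with control replicate 2, which shares its slide. Those of medium U replicate 2 lay further apart, at -0.1655 with control replicate 2 and 0.2716 with control replicate 1, which shares its slide. Medium U replicate 3 shares both its number and its slide with control replicate 3. Pairing by number was not tested beyond these correlations.

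Of 147 named probes, 71 kept direction and call in all 26 settings and 131 without any single array. Most of the 147 were chosen for large called changes, so this stability was partly built in and is not that of all calls. Without medium U replicate 2, 131 of the 147 stayed the same, while 1068 of all 3378 called probes were called again. With the methods' test these numbers were 137 and 998. Signs turned in 21 cases. With spike-in scaling these were LSM12A (0.126), the hypothetical [Takifugu] probe (0.147), TRIM25 (0.007), EIF1B (0.155), PTBP1 (0.348), MATR3 (0.368), RBM25 (0.019), FBN1 (0.318), SLCO1B3 (0.189), SEC22A (0.285), the SORBIDRAFT probe (0.224), UBR2 (0.076), EIF4E (0.039), SEPP1A (0.282), KCT2 (0.221) and MED13 (0.015). After normexp on the median signal, chosen after seeing the data since no mean signal was in the files used (the planned form was not run), they were GTF2A2 (-0.235), ADD1 (-0.307), MRPS9 (-0.104), TIMM8A (-0.138) and FARSB (-0.198).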

Other observations

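Genes outside the lists above, chosen after their values were seen, add to the description. Of sterol synthesis, HMGCS1, near the start of the mevalonate route, was lower at medium U by -1.51 ± 0.19 (limma adjusted p = 0.00219) and LSS, which closes the sterol rings, by -1.55 ± 0.27 (adjusted p = 0.00725). ADSL, an enzyme of purine synthesis, was higher by 1.93 ± 0.25 (adjusted p = 0.00234), and PRPS2, which makes the ribose phosphate donor of nucleotides, by 1.81 ± 0.25 (adjusted p = 0.00308). ALAS1, the first enzyme of haem synthesis, changed by 2.08 ± 0.28 (adjusted p = 0.00245), and SLC40A1, the iron exporter ferroportin, by -1.10 ± 0.19 (adjusted p = 0.0071). The 3 probes of IGFBP2, a carrier of insulin-like growth factors, rose by 0.65, 1.00 and 1.84. PER1 of the circadian clock rose by 1.76 ± 0.17 (adjusted p = 0.00112), in fish all kept in the dark. CREB3L3, a liver transcription factor, had 2 lower probes (-1.22 and -1.76), while CREB3L3B rose by 1.96 ± 0.28 (adjusted p = 0.00328).

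Calls leaned differently by the source prefix of the probe. Of called probes with the OM prefix 58.5% were lower, against 38.5% of those with a plain number and 29.6% of those with the SS prefix; the difference was not tested.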
